A study of Homo sapiens with 3 samples.

Results

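The nuclear-encoded subunits of respiratory complexes I, II, III and IV were described in 3 RNA-seq libraries from TOV21G cells, a human ovarian clear cell carcinoma line. Members were taken by symbol from the count table: numbered NDUFA, NDUFB, NDUFC, NDUFS and NDUFV genes, NDUFAB1, the UQCR genes and CYC1, the COX4 to COX8 genes and the SDHA to SDHD genes. Assembly factors, pseudogenes, antisense genes and read-through transcripts were left out where the symbol or description showed them. This gave 71 of 57736 gene rows with 68 symbols, since NDUFB6, SDHC and COX6B2 each stood under a pair of Ensembl IDs. Of the 71 rows, 63 passed the filter on low counts and entered the test. NDUFB8 was not among them, as its row (ENSG00000166136) carried the symbol SEC31B in the table.

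All 3 libraries came from the same line, which the labels describe as mutated in ARID1A, which encodes a SWI/SNF chromatin remodelling subunit, and grown in RPMI medium with serum. One library was labelled HDAC2 WT. The HDAC2 knockdown group had 2 libraries, shRNA 1 and shRNA 2, which differ in the short hairpin RNA against HDAC2, the gene of a histone deacetylase, that a lentivirus delivered. Any control virus in the WT cells, and the time from transduction to collection, are not given in the sources used here. This comparison asks which transcripts differ when HDAC2 is reduced. Each hairpin had 1 library and WT had 1, so p-values measure only the spread between the hairpin libraries, which may be technical. For each gene that spread was mostly borrowed from all genes, with 1 residual and 18.9 prior degrees of freedom. Every change below is read against a single WT library.

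Total estimated counts ranged from 10138479 to 11398791 per library. Levels are given in CPM, counts scaled to a common library total after TMM normalisation. HDAC2 was at 105 CPM in WT, 33.4 with shRNA 1 and 51.6 with shRNA 2, or −1.31 ± 0.20 (SE) on the log2 scale (edgeR adjusted p = 4.82e-04). The epithelial and ovarian markers PAX8, KRT8, KRT18 and EPCAM were detected in all 3 libraries. Of markers of other cell types, PTPRC (leukocytes) had 0 to 2 counts, DCN (fibroblasts) 1 to 13 and COL1A1 (fibroblasts) 54 to 89. COL1A1 was thus also detected in all 3 libraries. In WT, shRNA 1 and shRNA 2 it was at 6.72, 4.71 and 7.87 CPM, beside 6.92, 7.50 and 10.8 for EPCAM.

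The respiratory chain of the mitochondrial inner membrane passes electrons from NADH (complex I) and succinate (complex II) through ubiquinone to complex III, then by cytochrome c to complex IV, which reduces oxygen. Complexes I, III and IV pump protons and so drive ATP synthesis by complex V. Complexes I, III and IV combine subunits encoded in the mitochondrial genome with many more encoded in the nucleus, while all subunits of complex II are nuclear. The nuclear genes are dispersed over the chromosomes, and many are regulated by shared factors such as NRF1, GABP and the PGC-1 coactivators.

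Most respiratory chain subunit transcripts did not pass the test after HDAC2 knockdown, and 5 did. NDUFB6 and NDUFA5, accessory subunits of complex I, and NDUFA4, a subunit of complex IV, rose 3.25-fold, 2.82-fold and 2.25-fold. COX8A, a subunit of complex IV, fell to 57.3% ± 3.2 (SD, n = 2) of WT and NDUFB11, an accessory subunit of complex I, to 67.1% ± 0.83. An adjusted p below 0.05 by edgeR's quasi-likelihood test counted as passing, with the Benjamini-Hochberg adjustment over all 14524 genes tested. Of the 63 members tested, 3 were higher and 2 lower, and 58 did not pass. Of all genes tested, 7.72% passed, 3.96% as higher and 3.76% as lower, so the share of members that passed was near that of all genes. The median log2 change of the 63 was −0.06, with a range from −0.80 to 1.70, beside a median of 0.01 for all genes. Of the 63 members, 20 were above WT in both hairpin libraries (39.9% of all genes), 32 were below WT in both (39.3% of all genes) and 11 were split. Unadjusted p-values fell under 0.05 for 13 members, 4 higher and 9 lower, and for 23.5% of all genes. In these bulk libraries a change in the number of cells that carry a transcript and a change of RNA per cell cannot be told apart.

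**Figure D1:**
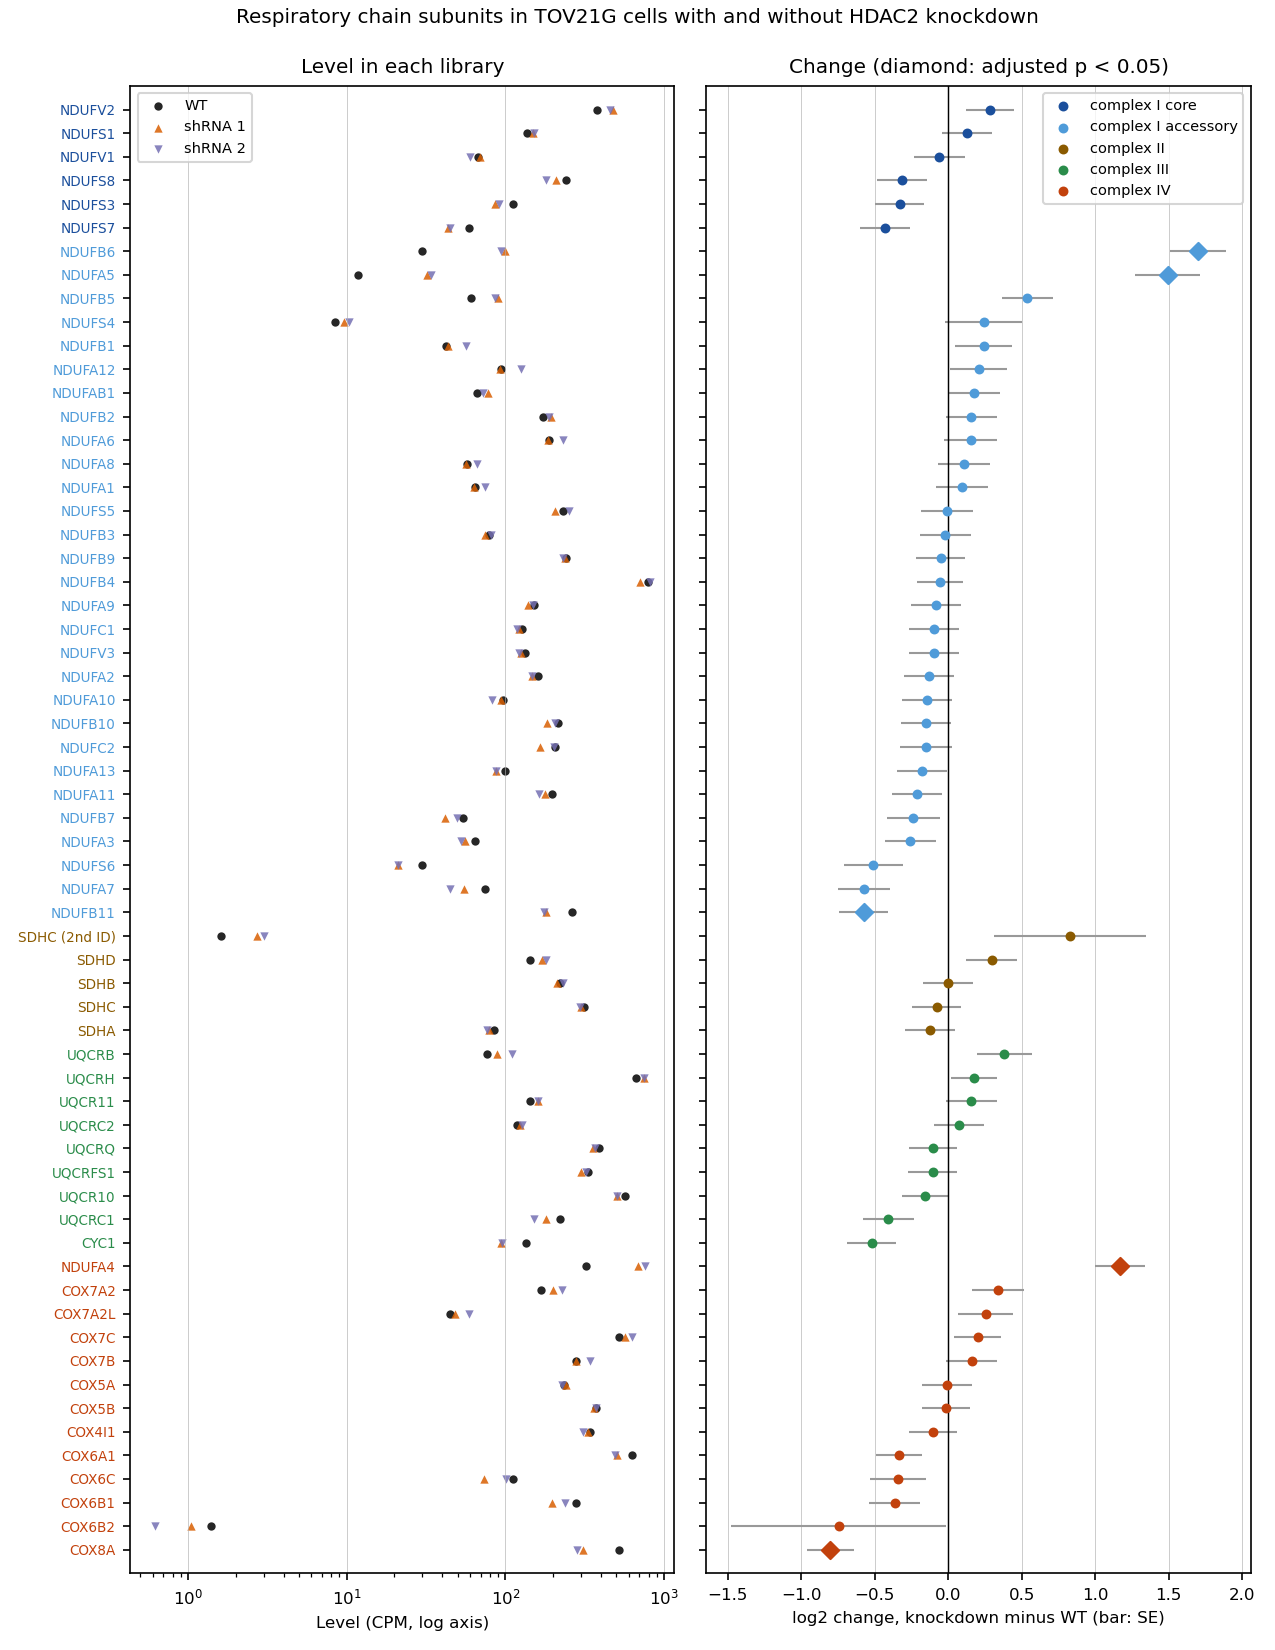
Each row is 1 of 62 of the 63 members tested, coloured by complex and ordered by change within it. Left, CPM in each library on a log axis; right, log2 change of knockdown against WT with its SE, diamonds marking an adjusted p below 0.05. NDUFB6, NDUFA5 and NDUFA4 lie to the right at 1.70, 1.49 and 1.17, COX8A and NDUFB11 to the left at −0.80 and −0.58, and the other members lie nearer to 0 or have wide errors.

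NDUFB6 encodes an accessory subunit of the membrane arm of complex I. It had 297 counts in WT, 1146 with shRNA 1 and 1059 with shRNA 2, or 29.8, 100 and 93.7 CPM. Both hairpin libraries stood far above WT and close to each other. Its log2 change was 1.70 ± 0.19 (SE; edgeR adjusted p = 2.51e-05), the 170th highest rise and the 11th smallest p of the 14524 genes tested. The second ID under this symbol (ENSG00000203659) had 0, 1 and 2 counts and was not tested.

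NDUFA5 encodes an accessory subunit of the arm of complex I that carries electrons to ubiquinone. It was at 117, 366 and 387 counts in WT, shRNA 1 and shRNA 2, or 11.7, 31.9 and 34.2 CPM. Again both knockdown libraries lay above WT, and the gap between them was small beside that to WT. The log2 change was 1.49 ± 0.22 (SE; edgeR adjusted p = 3.93e-04).

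NDUFA4 was first purified with complex I and is now assigned to complex IV. It was an abundant transcript in WT, with 3195 counts, and had 7826 and 8586 counts in the knockdown libraries, or 321, 683 and 759 CPM. The libraries with a hairpin were each more than 200% of WT, at 213% and 237%. The log2 change was 1.17 ± 0.17 (SE; edgeR adjusted p = 2.97e-04). NDUFA4 made up 8.38% of the summed CPM of the complex IV members in WT, 18.0% with shRNA 1 and 18.8% with shRNA 2. These shares are not corrected for transcript length, and other members of the sum, such as COX8A, changed as well.

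COX8A encodes the broadly expressed form of the small subunit VIII of complex IV. It had 5161 counts in WT, 3537 with shRNA 1 and 3222 with shRNA 2, or 518, 309 and 285 CPM. Both knockdown libraries lay below WT. The change was −0.80 ± 0.16 on the log2 scale (SE; edgeR adjusted p = 0.00400). This call was lost when the trend of change over GC content (the share of G and C bases) was removed with GC from the annotation's principal transcript, at −0.58 (edgeR adjusted p = 0.0682). Of the 75-base sequences in its transcripts, 23.6% also occur in the overlapping gene AP000721.1, which had 0 counts in every library.

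NDUFB11, on the X chromosome, encodes an accessory subunit of the membrane arm of complex I. Its counts were 2641 in WT and 2055 and 1992 with the hairpins, or 265, 179 and 176 CPM. Both hairpin libraries were below WT and nearly equal. The log2 change was −0.58 ± 0.17 (SE; edgeR adjusted p = 0.0368), close to the threshold. NDUFB11 shares 38.3% of its 75-base sequences with the neighbouring gene RBM10, with 449, 321 and 358 counts of its own, so the split of reads between the pair is uncertain. With the counts of both summed, the log2 change was again −0.58 and passed (edgeR adjusted p = 0.0212). That fit called 9.98% of all genes. The NDUFB11 call was lost by DESeq2's Wald test (adjusted p = 0.0735), which called 306 genes, 3.94% of the 7766 to which DESeq2 gave an adjusted p. The NDUFB11 call was also lost with the trend of change over GC content removed (edgeR adjusted p = 0.287).

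The sequences upstream of the called genes are shown because the labels concern a chromatin regulator and because members moved in both directions. They are the 250 bases before the RefSeq start of each gene (GRCh38.p14), written 5′ to 3′ on the strand of the gene. Capitals mark exact matches, on either strand, to 4 motifs. Variants of a motif were not searched, so an unmarked stretch may still hold one. The core of the NRF1 motif is TGCGCA, its own reverse complement. The ETS motif that GABP binds is CCGGAAG, searched on the opposite strand as CTTCCGG. The YY1 motif is AAGATGG, on the opposite strand written CCATCTT, and the NF-Y motif is CCAAT, on the opposite strand written ATTGG. In these 4 sequences no match overlaps another. NDUFB6 (chr9:32573160-32573409, minus strand) held none of the 4. NDUFA5 (chr7:123557819-123558068, minus strand) held the motifs of NF-Y and YY1. COX8A (chr11:63974370-63974619, plus strand) held the NF-Y motif at 2 places and the ETS motif once, each on the opposite strand. NDUFB11 (chrX:47144703-47144952, minus strand) held the NF-Y motif on the opposite strand and the NRF1 core. NDUFA4 had no entry in the promoter table.
NDUFB6: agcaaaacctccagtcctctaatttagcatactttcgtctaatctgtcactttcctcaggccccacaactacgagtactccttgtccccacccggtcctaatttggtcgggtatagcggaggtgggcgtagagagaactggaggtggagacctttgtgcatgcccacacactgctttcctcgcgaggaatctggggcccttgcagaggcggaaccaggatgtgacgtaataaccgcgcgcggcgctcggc
NDUFA5: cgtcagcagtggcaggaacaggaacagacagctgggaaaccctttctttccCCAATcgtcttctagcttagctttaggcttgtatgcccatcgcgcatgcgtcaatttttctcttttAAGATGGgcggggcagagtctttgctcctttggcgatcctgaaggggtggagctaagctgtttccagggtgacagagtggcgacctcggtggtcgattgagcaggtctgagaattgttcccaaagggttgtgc
COX8A: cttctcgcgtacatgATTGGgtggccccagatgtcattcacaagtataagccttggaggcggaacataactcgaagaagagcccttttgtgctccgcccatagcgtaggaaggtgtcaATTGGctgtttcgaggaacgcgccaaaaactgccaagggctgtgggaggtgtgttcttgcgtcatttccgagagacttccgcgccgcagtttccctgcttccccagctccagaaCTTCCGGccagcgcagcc
NDUFB11: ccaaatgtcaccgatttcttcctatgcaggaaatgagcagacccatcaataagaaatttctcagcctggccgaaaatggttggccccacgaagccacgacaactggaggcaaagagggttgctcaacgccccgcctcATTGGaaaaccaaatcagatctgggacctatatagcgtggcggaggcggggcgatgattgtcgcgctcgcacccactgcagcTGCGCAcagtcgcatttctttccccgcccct

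Of the 68 member symbols, 55 had an entry in the table of RefSeq promoters, 52 of them for members tested. Within the 300 bases around the start of these 52, TGCGCA occurred in 17 (32.7%), against 8.24% of all 35116 promoters in the table. CCGGAAG occurred in 15 (28.8%, against 10.3%) and AAGATGG in 12 (23.1%, against 5.84%). CCAAT occurred in 16 (30.8%, against 34.6%). The first 3 motifs were therefore more frequent among the members than in the whole table, and CCAAT was not. The whole table was not limited to genes tested here, as the 52 were. The shares therefore do not compare the members with other expressed genes. These counts describe letters in a window and not binding of a factor.

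The core subunits of complex I, which hold the flavin and iron-sulfur centres, did not pass in either direction. Of 7 tested, 0 were higher and 0 lower, and 2 had an unadjusted p under 0.05 by edgeR; the median log2 change was −0.31, and −0.09 with the trend over GC content removed. NDUFS7, an iron-sulfur subunit next to the ubiquinone site, was the lowest, at 59.3 CPM in WT and 43.5 and 44.6 with the hairpins (−0.43 ± 0.17, SE; edgeR adjusted p = 0.134). The neighbouring subunits NDUFS3 and NDUFS8 lay at −0.33 and −0.31, and each was below WT in both hairpin libraries. NDUFS7 also shares 40.4% of its 75-base sequences with other genes.

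NDUFV2, an iron-sulfur subunit of the NADH-oxidising end, was the highest of the core, at 381, 474 and 455 CPM in WT, shRNA 1 and shRNA 2. Its log2 change was 0.29 ± 0.16 (SE; edgeR adjusted p = 0.301). It has sequence in common with AP005263.1, which had 177 counts in WT, 0 with shRNA 1 and 40 with shRNA 2, and with genes that share sequence summed the change was 0.22. NDUFS1, the large iron-sulfur subunit, was at 0.13 and NDUFV1, the flavin-binding subunit, at −0.06. With the GC trend removed both signs turned, to −0.05 for NDUFS1 and 0.18 for NDUFV1.

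Of 30 rows for accessory subunits of complex I, 29 were tested, with 2 higher, 1 lower and a median of −0.06. Beside NDUFB6 and NDUFA5, the next highest was NDUFB5, a membrane-arm subunit, at 60.7, 90.3 and 86.1 CPM (0.54 ± 0.17, SE; edgeR adjusted p = 0.0636). Both hairpin libraries were above WT, short of the threshold. NDUFS4, which supports the NADH-oxidising end and was the accessory member of lowest CPM among those tested, was at 8.43, 9.60 and 10.4 CPM. NDUFAB1, the mitochondrial acyl carrier protein, was at 0.18.

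At the other end, NDUFA7 was at 74.4, 55.2 and 44.8 CPM in WT, shRNA 1 and shRNA 2 (−0.57 ± 0.18, SE; edgeR adjusted p = 0.0526). NDUFS6, a zinc-binding subunit, was at 299, 241 and 239 counts (−0.51 ± 0.20, SE; edgeR adjusted p = 0.124). Both genes were below WT in each hairpin library and neither passed. The remaining accessory subunits lay between −0.26 (NDUFA3) and 0.24 (NDUFS4). NDUFB4, the most abundant of complex I by CPM, was at 790, 705 and 813, with WT between the hairpins. The row of NDUFB8, outside the set by its symbol, had 1475, 1500 and 1306 counts and a log2 change of −0.26 ± 0.17 (SE; edgeR adjusted p = 0.379).

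Complex II had 5 rows tested, with 0 higher, 0 lower and a median of −0.00. SDHD, a membrane anchor, was the highest of those averaging 50 counts or more, at 144, 171 and 182 CPM in WT, shRNA 1 and shRNA 2 (0.30 ± 0.17, SE; edgeR adjusted p = 0.316). SDHD shares sequence with AP002884.3, which had 92, 16 and 0 counts and itself passed as lower, and with both summed the change was 0.21. SDHA, the flavoprotein that oxidises succinate, was the lowest at −0.12, and SDHB, the iron-sulfur subunit, was at −0.00 (222, 211 and 232 CPM). SDHC, the other anchor, was at −0.08, and its second ID (ENSG00000235477) had 16, 31 and 34 counts, too few to resolve its change of 0.83 ± 0.52 (SE; edgeR adjusted p = 0.356).

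Complex III had 9 of 10 rows tested, with 0 higher, 0 lower and a median of −0.10. CYC1, which encodes cytochrome c1, was the lowest, with 1353 counts in WT and 1083 and 1074 with the hairpins (−0.52 ± 0.17, SE; edgeR adjusted p = 0.0610). UQCRC1, a core protein, was at 220, 181 and 151 CPM, a change of −0.41. Both were below WT in each hairpin library, whereas the second core protein, UQCRC2, was at 119, 124 and 127 CPM, a change of 0.07. UQCRB, a subunit at the ubiquinone site, was the highest, at 76.4, 88.3 and 111 CPM (0.38 ± 0.18, SE; edgeR adjusted p = 0.215). The Rieske iron-sulfur protein UQCRFS1 was at −0.11, and UQCRH, the most abundant of the complex by CPM, at 0.17. UQCRHL, a copy of UQCRH, had 4, 1 and 1 counts and was not tested.

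Complex IV had 13 of 19 rows tested, with NDUFA4 higher, COX8A lower and a median of −0.02. COX7A2, COX7A2L, COX7C and COX7B lay above WT in both hairpin libraries, with changes of 0.34, 0.26, 0.20 and 0.16. With the GC trend removed COX7C and COX7B were at −0.08 and −0.04, on the other side of 0. COX6A1, COX6C and COX6B1 lay below WT in both, at −0.34, −0.34 and −0.36. COX4I1, COX5A and COX5B, the broadly expressed subunits IV and V, were at −0.10, −0.01 and −0.02. None of these 10 passed; COX6A1 had an adjusted p of 0.196 by edgeR, which became 0.0383 with the GC trend removed by the longest transcript and not with the principal transcript. COX6B2, the testis form of subunit VIb, had 14, 12 and 7 counts. Of the other 6 rows, COX4I2, COX6A2, COX7A1, COX7B2, COX8C and the second ID of COX6B2 had no count in any library; these are forms of lung, heart and skeletal muscle or testis, and a count of 0 allows up to 0.296, 0.263 and 0.267 CPM in WT, shRNA 1 and shRNA 2 (3 counts, for counting error only).

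Summed over members, the transcripts of each complex stayed near WT in both hairpin libraries. The core of complex I summed to 1102 CPM in WT, 1114 with shRNA 1 and 1061 with shRNA 2. Accessory subunits of complex I summed to 4010, 3758 and 4035 CPM, complex II to 765, 763 and 787, and complex III to 2649, 2555 and 2594. For complex IV the sums were 3825, 3792 and 4049 CPM. All members together were at 97.0% of WT with shRNA 1 and 101% with shRNA 2. Complex IV without NDUFA4 and COX8A was at 93.8% and 101% of WT.

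Between genes, levels were compared per kilobase of the longest annotated transcript, over 62 members with a length. By CPM per kilobase, COX8A ranked 1st in WT, at 1021, and 3rd in the knockdown, at 609 and 562 with shRNA 1 and shRNA 2. UQCRH (965 in WT) and COX6A1 (825) were next in WT. NDUFA5 ranked 61st of 62 in WT, at 2.09 CPM per kilobase, and had 5.69 and 6.10 with the hairpins. NDUFB6 went from 21.8 in WT (rank 52) to 73.2 and 68.6 (rank 39), and NDUFA4 from 151 (rank 18) to 321 and 357 (rank 11). The rising genes thus started at the bottom, in the lower part and in the upper part of the range. Ranks depend on the transcript length used: by the principal transcript, NDUFB4 ranked 1st in WT and COX8A 4th.

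Change went with the base composition of the transcript. The share of G and C bases in the longest transcript was negatively correlated with the log2 change across the 62 members with a sequence (Pearson's r = −0.64, Spearman's rho = −0.72), and less so across 14124 genes (r = −0.33, rho = −0.48). These are descriptions across genes, which share the same 3 libraries and are not independent replicates. The 14124 genes were not matched to the members by count, so whether the link is closer in the members was not tested. Among the 21 members with a GC content under 45%, 15 were above 0 and the median change was 0.24, the same as that of all genes in this range (0.24). Among the 16 members at 55% or more, 0 were above 0 and the median was −0.35, beside −0.26 for all genes. The members between had medians of −0.05 (17 members, 45 to 50%) and −0.06 (8 members, 50 to 55%).

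The called genes that rose had a lower GC content than those that fell: NDUFA5, NDUFA4 and NDUFB6 were at 35.0%, 40.4% and 41.7% GC, and COX8A and NDUFB11 at 58.6% and 60.0%. Within the rises and within the falls, the size of the change did not follow GC content. With the GC trend of all genes removed, NDUFB6, NDUFA5 and NDUFA4 passed again at log2 changes of 1.51, 1.09 and 0.94. COX8A passed at −0.57 with GC from the longest transcript (edgeR adjusted p = 0.0351), and not at −0.58 with GC from the principal transcript (edgeR adjusted p = 0.0682; 2.59% of all genes called). The members called then were 3 higher and 2 lower, the 2 being COX8A and COX6A1; of all genes 4.71% were called, 1.72% as higher and 2.99% as lower. The sign of the change turned in 12 of the 63 members tested, all with a change of at most 0.24 in size before, and in 13 with GC from the principal transcript, 9 of them shared. Without NDUFB6, NDUFA5 and NDUFA4, the correlations were −0.68 and −0.68 over 59 members. Whether base composition altered the counting of these transcripts was not tested.

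**Figure D2:**
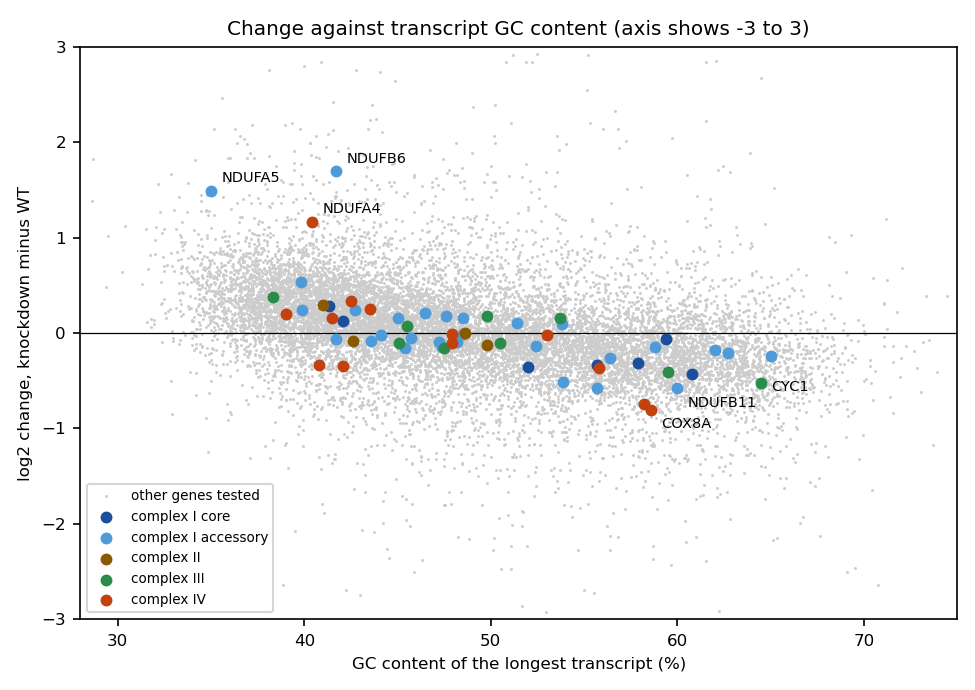
Log2 change of knockdown against WT (vertical axis) plotted over the GC content of the longest transcript in percent (horizontal axis), members coloured by complex and other genes tested in grey. Members under 45% GC lie mostly above 0, with a median of 0.24. Those at 55% or more all lie below 0, with a median of −0.35. NDUFB6, NDUFA5 and NDUFA4 stand above the other members.

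The hairpin libraries gave similar member levels. They share the WT library, so their changes against it are given side by side and not correlated. The median change was −0.07 with shRNA 1 and −0.05 with shRNA 2. NDUFB6 changed by 1.74 and 1.65 (shRNA 1 and shRNA 2), NDUFA5 by 1.43 and 1.53, NDUFA4 by 1.09 and 1.24, COX8A by −0.75 and −0.86 and NDUFB11 by −0.56 and −0.59. The median absolute difference between the hairpins was 0.10 for members and 0.16 for all genes that averaged 50 counts or more. These genes were not matched to the members by count, so whether the hairpins lay closer in the members was not tested. In 38 of 63 members (60.3%) shRNA 2 was above shRNA 1, against 50.2% of all genes.

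Among members averaging 50 counts or more, COX6C, a complex IV subunit, differed most between the hairpins upwards, by 0.47, at 111, 73.5 and 102 CPM in WT, shRNA 1 and shRNA 2. NDUFA12 followed at 0.43 (94.2, 92.7 and 125 CPM) and NDUFB1 at 0.39 (42.3, 43.3 and 56.8 CPM). In these 2 complex I genes shRNA 1 was near WT and shRNA 2 above it. Downwards, among the same members, the largest differences of shRNA 2 against shRNA 1 were −0.30 for NDUFA7, −0.26 for UQCRC1 and −0.21 for NDUFS8. COX6B2, with 12 and 7 counts, was at −0.62. With 1 library per hairpin these differences have no replicate check.

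**Figure D3:**
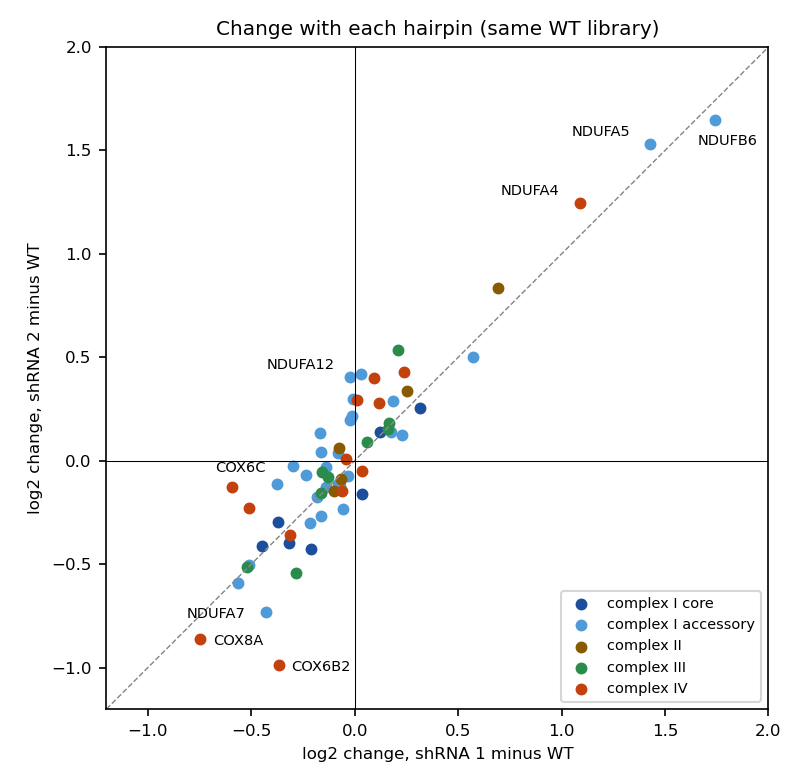
Log2 change against the same WT library with shRNA 1 (horizontal axis) and shRNA 2 (vertical axis) for the 63 members tested, coloured by complex; the dashed line marks equal change. NDUFB6, NDUFA5 and NDUFA4 stand apart at the upper right, and 38 of the 63 members lie above the line.

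Several members have sequence in common with other genes, which bears on how estimated counts were divided. NDUFB6, NDUFA5 and NDUFA4 share at most 0.5% of their 75-base sequences with other genes. NDUFC2 shares 12.9% with the read-through gene NDUFC2-KCTD14 (ENSG00000259112), which had 93 counts in WT and 0 in both hairpin libraries, while NDUFC2 itself was at 205, 167 and 201 CPM (−0.15 ± 0.18, SE). NDUFA1 shares 38.6% with RNF113A and was at 64.5, 63.5 and 74.1 CPM. In another fit, each member's counts were summed with those of genes that hold at least 5% of its 75-base sequences. Then 4 members were higher and 4 lower, where 9.98% of all genes were called. NDUFB5, NDUFA7 and CYC1, near the threshold before, then passed, with log2 changes of 0.54, −0.57 and −0.52 as before. NDUFB5 and CYC1 have no 75-base sequence in common with another gene. HDAC2, which was in no such sum, had an edgeR adjusted p of 2.73e-06 in this fit and 4.82e-04 in the main fit. The cause of the added calls was not tested.

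Related gene lists of the same organelle held genes that passed in both directions, and are given beside the 7.72% of all genes tested that passed. Of 18 genes of ATP synthase, complex V, 0 were higher and 2 lower, with a median log2 change of 0.06. The 2 were ATP5G2, a form of the c-ring subunit (521.5, 352 and 356 CPM; −0.56 ± 0.16, SE; edgeR adjusted p = 0.0349), and ATP5I, a membrane subunit (486, 302 and 360 CPM; −0.56 ± 0.17, SE; edgeR adjusted p = 0.0454). Of 48 assembly factors of complexes I to IV, 2 were higher and 1 lower, with a median of 0.06. COX19 and COX20, both needed to build complex IV, rose by 0.87 ± 0.25 and 0.61 ± 0.17 (SE; adjusted p = 0.0392 and 0.0367, edgeR). NDUFAF3, an assembly factor of complex I, fell to 62.3% of WT (adjusted p = 0.0180, edgeR).

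Of 18 regulators of mitochondrial genes, 1 was higher and 2 lower, with a median of −0.05. PPARGC1A, the gene of the coactivator PGC-1alpha, was at 53.9, 82.1 and 99.1 CPM in WT, shRNA 1 and shRNA 2 (0.75 ± 0.18, SE; edgeR adjusted p = 0.0170). HCFC1, a chromatin cofactor, and PPRC1, a PGC-1 family coactivator, fell by 0.69 and 0.58 on the log2 scale (adjusted p = 0.0155 and 0.0419, edgeR). Of 13 genes of the TCA cycle, which supplies NADH and succinate to complexes I and II, 1 was higher, 0 lower, and the median was −0.12. DLD, the dihydrolipoamide dehydrogenase subunit, was at 57.9, 117 and 111 CPM (0.98 ± 0.18, SE; edgeR adjusted p = 0.00229). With the GC trend removed, ATP5I (−0.36), COX20 (0.45), NDUFAF3 (−0.38), PPARGC1A (0.52), HCFC1 (−0.42) and PPRC1 (−0.38) kept their direction and did not pass. Of 13 mitochondrially encoded subunits looked for by symbol, 0 were found in the count table, so they were not analysed.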

How the data were processed

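RNA was sequenced as 75 bp reads from libraries made with a ScriptSeq kit, per the labels' protocols. The authors deposited estimated counts for each Ensembl gene, all whole, so rounding changed 0 values. The submitters' processing notes name RSEM 1.2.3, edgeR and hg19 without their roles; aligner and strand setting are not given in the sources used here. By a model, RSEM divides ambiguous reads. Libraries were grouped by the genotype label. The main test was edgeR 4.0.16 in R 4.3.3 (glmQLFit, TMM, filterByExpr defaults, knockdown against WT, 1 residual degree of freedom), on 14524 genes, with Benjamini-Hochberg adjustment; log2 CPM used a prior count of 2. Each SE was derived from the log2 change and the F statistic of this test, and so rests on the same shared spread. DESeq2 1.42.0 was an alternative. GENCODE 29 (GRCh38) gave transcript length, GC content (97.2% of genes tested) and shared 75-base sequences, matched on either strand. Of the 71 member IDs, 69 were found. The GC trend was removed by lowess with a span of 0.3, as an offset. The fit was tested on simulated data.

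The members and lists were chosen with earlier results of these data known. By rule the text names HDAC2, NDUFA5, members that passed, the highest and lowest of each complex and between hairpins, members with under 10 mean counts, members sharing sequence with a row that changed, and up to 2 genes per list and direction; other members were described after their values were seen. Values of 1 member and 1 marker are not reported here. Alternatives were other scalings, filters, DESeq2, GC removal, summed copies and leaving out a hairpin.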

Additional observations from a re-analysis of the deposited data

How the results depend on the processing

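The log2 changes of NDUFB6, NDUFA5, NDUFA4, COX8A and NDUFB11 kept their direction under every alternative tried. The 3 rises passed in each alternative with a test except the fit with no filter on low counts, in which 0 of 65 members passed, 0 higher and 0 lower, and 10 had an unadjusted p under 0.05; of all genes 0 passed by edgeR, 2486 had an unadjusted p under 0.05, and the 5 called members and HDAC2 had an adjusted p of 0.468. The number of members lower was 1 by DESeq2's Wald test, 4 with counts of genes that share sequence summed and 0 with GC removed by the principal transcript, where 6 members had an unadjusted p under 0.05; the last 2 were chosen after seeing the data. The median log2 change of the members was −0.026 with library size alone, −0.076 among genes averaging 50 counts or more and −0.042 with the GC trend removed, and between −0.07 and −0.05 when 1 hairpin library was left out, a value with no test. With the GC trend removed 12 of the 63 members turned sign, and 13 with the principal transcript. Of the genes named by rule NDUFB1 did so, from 0.24 to −0.01 (adjusted p = 0.986, edgeR), but was at 0.21 with the principal transcript, with which SDHA turned from −0.12 to 0.03; the cause was not tested. Over all genes, 1121 passed by the main fit, 306 by DESeq2's Wald test, 684 with the GC trend removed and 376 by the principal transcript. Library size alone moved the split over all genes from 575 higher and 546 lower to 868 and 595, and of members to 4 and 3. The scalings moved the median of all genes by at most 0.03. No paired analysis was possible because WT had 1 library and the replicate numbers name hairpins. A single WT library limits every change.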

Other observations

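Cytochrome c, the carrier between complexes III and IV, lay outside the set by its symbol and was looked at after other values were seen. The counts of CYCS were 1349 in WT, 2553 with shRNA 1 and 2619 with shRNA 2, or 135, 223 and 232 CPM. Both hairpin libraries were above WT, by 0.75 ± 0.18 on the log2 scale (SE; edgeR adjusted p = 0.0125). With the GC trend removed the change was 0.55 (adjusted p = 0.0591, edgeR).

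Of 115 rows for pseudogenes and read-through copies of the members, 15 had a count. COX7CP1, a copy of COX7C, had 1045 counts in WT, 1199 with shRNA 1 and 1673 with shRNA 2. NDUFV2P1, a copy of NDUFV2, had 404, 547 and 467. Neither passed the edgeR test (adjusted p = 0.444 and 0.710). NDUFA4L2, a paralog of NDUFA4, had 0, 1 and 0 counts.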
